A study of Mus musculus with 14 samples.

Results

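The comparison set transformed mouse embryonic fibroblasts carrying a double mutant of naked mole rat TRF1 against fibroblasts carrying the TIN mutant of the same protein, both grown at atmospheric oxygen. It used 4 of the 14 RNA sequencing libraries, 2 of the double mutant and 2 of the TIN mutant, and the 16157 of 52636 genes that reached 1 CPM (a read count scaled to a common library total) in at least 2 libraries. In every line of the series the mouse TRF1 gene had been replaced by a naked mole rat form. The double mutant carried Glu69Lys, Val70Ala and Ala75Thr, called GLAD, together with Ala105Thr, called TIN, and the TIN mutant carried Ala105Thr alone, so the compared groups differed by the GLAD substitutions on a shared TIN background. Both were read again at 1% oxygen (hypoxia), and the GLAD mutant and the wild-type naked mole rat protein at atmospheric oxygen (normoxia) give the same step without the TIN substitution. If each mutant is 1 clone or line, which the labels leave unsaid, effects of line and of substitution cannot be told apart. The labels do not say whether libraries A and B of a group came from separate cultures, so the p-values cover the spread of these libraries alone, and that spread may be technical.

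TRF1 is a shelterin protein that binds double-stranded telomeric DNA, helps replication forks pass through the repeats and recruits the rest of the complex through TIN2. Fibroblasts are connective-tissue cells that build collagen matrix. They also carry nucleic acid sensors that start interferon production, and secreted interferon then acts through its receptor, the STAT proteins and interferon regulatory factors on a large set of antiviral and antigen-presentation genes.

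Recovered depth was 13156168 and 11916989 reads in double-mutant libraries A and B and 14487723 and 12246964 reads in TIN libraries A and B. With no read, a gene may still have held 3 reads, which is 0.225 and 0.252 CPM in the double mutant and 0.202 and 0.241 CPM in the TIN mutant, counting error only. Libraries A and B differed by a median of 0.075 in the double mutant and 0.083 in the TIN mutant on the log2 scale. The 4 TIN libraries, of both oxygen levels, stood apart from all other libraries on the second principal component. Fibroblast markers summed to 9864 and 10992 CPM in the double mutant and 7382 and 7388 CPM in the TIN mutant, while the fibroblast marker Thy1 had 1 and 0 reads in the double mutant and 2 and 1 reads in the TIN mutant. The leukocyte genes Ptprc, Adgre1, Aif1, Tyrobp and Spi1 and the muscle regulators Myod1, Myog and Myf5 had no read in the 4 libraries. Endothelial markers summed to 31.0 and 31.0 CPM in the double mutant and 17.2 and 17.2 CPM in the TIN mutant, a sum that Egfl7 carried, while 1 marker was higher and 2 were lower of 5 measured. Epithelial markers summed to 4.93 and 4.56 CPM in the double mutant and 9.82 and 9.39 CPM in the TIN mutant. Krt19 was lower, with a log2 difference of −3.44, and the other 3 of 4 measured epithelial markers were higher. In bulk RNA, fewer cells of a kind and less RNA per cell cannot be told apart.

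The differences between the lines were wide. In the double mutant 3890 genes were higher and 3783 lower at a limma adjusted p under 0.05, which is 24.1% and 23.4% of the genes tested and 47.5% together. At least 2-fold, 1386 genes (8.58%) were higher and 452 (2.8%) lower. At least 16-fold, 100 were higher and 1 was lower. The median over all genes was −0.015 on the log2 scale. The A and B libraries of the lines did not overlap for 77.1% of genes. Member counts, and statements below that the libraries of a gene separate the lines, have to be read against these shares. Of the genes at least 2-fold higher 1194 (86.1%) were protein coding, as were 315 (69.7%) of those at least 2-fold lower. The protein-coding share of all genes tested was not taken, so neither share is read as a departure from it.

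**Figure D1:**
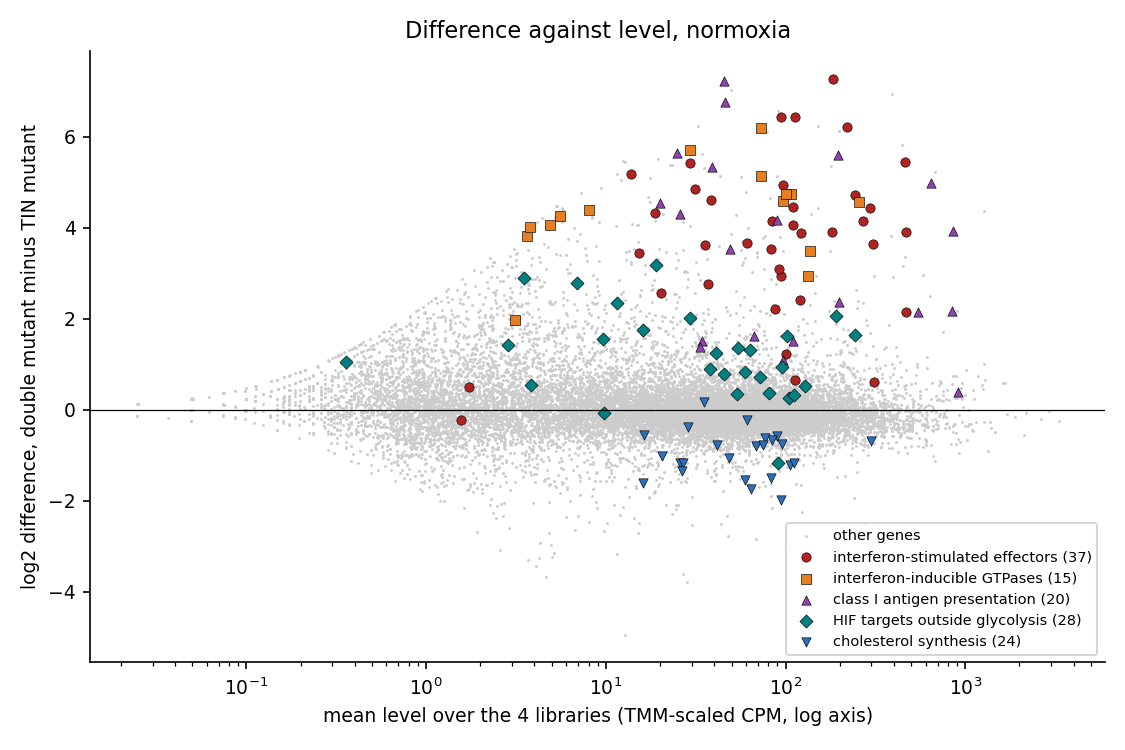
Log2 difference of the double mutant minus the TIN mutant in normoxia (vertical axis) against mean level over the 4 libraries (horizontal axis, TMM-scaled CPM on a log axis), 1 point a gene, with the members of 5 lists coloured. Interferon effectors, GTPases and class I genes lie above the cloud at medians of 3.90, 4.40 and 3.73, HIF targets at 1.14, and cholesterol synthesis genes below it at −0.90.

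Genes of the interferon system, from sensors to effectors, were mostly higher in the double mutant. Of the 16 cytosolic nucleic acid sensors measured 15 were higher and none lower, at a median log2 difference of 2.34. The RNA sensor Ifih1 stood at 129 and 125 CPM in the double mutant and 10.9 and 11.0 CPM in the TIN mutant. The related sensor Ddx58 stood at 427 and 426 CPM in the double mutant and 82.2 and 80.8 CPM in the TIN mutant, a log2 difference of 2.38 ± 0.07. In both, each double-mutant library lay well above each TIN library. Zbp1, which senses left-handed nucleic acid and can start necroptosis, stood at 155 and 154 CPM in the double mutant and 2.30 and 1.33 CPM in the TIN mutant, a difference of 6.10 ± 0.14. The DNA sensor Cgas differed by 1.25 and its partner Tmem173, which encodes STING, by 1.09. Mavs, the mitochondrial adaptor of the RNA sensors, differed by −0.18 and was not called.

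The step from receptor to nucleus held 16 higher and 3 lower of 20 measured receptor, STAT and interferon regulatory factor genes, at a median of 0.71. Of the receptor chains, Ifnar2 stood at 56.6 and 54.0 CPM in the double mutant and 28.9 and 28.2 CPM in the TIN mutant, a difference of 0.94, and Ifnar1 differed by 0.42. Stat2, part of the factor that type I interferon activates, stood at 568 and 536 CPM in the double mutant and 76.5 and 67.8 CPM in the TIN mutant, a difference of 2.93 ± 0.07 (adjusted p = 3.3e-16). Irf9, its DNA-binding partner, differed by 1.95. Both double-mutant libraries lay above both TIN libraries in the pair. Irf7, the master regulator of the later wave of interferon genes (ENSMUSG00000025498, chr7:141262706-141266481, minus strand, GRCm38), stood at 875 and 879 CPM in the double mutant and 14.5 and 15.6 CPM in the TIN mutant. Its level was 58.3 times as high in the double mutant, a log2 difference of 5.82 ± 0.08 (adjusted p = 2.6e-19). The lower members were the receptor kinase Jak1, at −0.56, and the regulatory factors Irf3 and Irf5, at −0.41 and −0.43. The interferon gene Ifnb1 itself had 5 and 5 reads in the double mutant and 0 and 0 reads in the TIN mutant, too few for a fold.

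The interferon-stimulated effectors act directly on viral RNA and protein. Of 37 measured members 35 were higher and none lower, at a median of 3.90. Over the list the median level was 165.6 and 168.1 CPM in the double mutant and 10.41 and 9.489 CPM in the TIN mutant. Oas2, which makes the antiviral messenger 2-5A (ENSMUSG00000032690, chr5:120730333-120749853, minus strand), stood at 378 and 355 CPM in the double mutant and 2.00 and 1.72 CPM in the TIN mutant. It had the highest log2 difference of the named genes, 7.28 ± 0.08 (adjusted p = 7.5e-21), or 197 times the TIN level. Isg15, a ubiquitin-like modifier, stood at 331 and 349 CPM in the double mutant and 20.9 and 23.3 CPM in the TIN mutant, a difference of 3.92. Ifit3, which helps block translation of viral RNA, stood at 443 and 490.1 CPM in the double mutant and 17.6 and 16.9 CPM in the TIN mutant, a difference of 4.72. In each of these genes the TIN libraries were the low ones and the lines did not overlap. Usp18, the protease that removes Isg15 and damps the receptor, differed by 4.44, the helicase regulator Dhx58 by 5.14 and the oligoadenylate synthetase-like Oasl2 by 5.44. Trim30a differed by 6.44, Ifi44 by 6.20 and Ifi27l2a by 6.44. Ifitm1, at −0.23, was not called. Oas, Ifit, Gbp and Trim30 genes have close paralogs, so reads may be split between copies and the values of single members are uncertain.

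The interferon-inducible GTPases, which coat and disrupt vacuoles that hold intracellular parasites, were higher in 15 of 15 members, at a median of 4.40. Gbp3 stood at 482 and 495 CPM in the double mutant and 18.7 and 21.8 CPM in the TIN mutant, a difference of 4.56 ± 0.08. Gbp9 differed by 5.70, Gbp6 by 5.14, Irgm2 by 4.75 and Mx1, which blocks influenza virus, by 4.85. The list median was 141.4 and 136.4 CPM in the double mutant and 1.221 and 1.77 CPM in the TIN mutant.

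Promoters are shown for 4 members of these steps. They were picked among promoters that hold the searched core, so its presence in them is no result. The sequences are the 250 bases before the RefSeq start (GRCm38.p6), given 5′ to 3′ on the gene's strand, and capitals mark the core GAAANNGAAA searched on both strands. Stat2 lies at chr10:128270248-128270497 on the plus strand with 1 match, Ifit3 at chr19:34583279-34583528 on the plus strand with 2, Isg15 at chr4:156200819-156201068 on the minus strand with 3 that overlap, and Gbp3 at chr3:142559794-142560043 on the plus strand with 2 that overlap.
Stat2: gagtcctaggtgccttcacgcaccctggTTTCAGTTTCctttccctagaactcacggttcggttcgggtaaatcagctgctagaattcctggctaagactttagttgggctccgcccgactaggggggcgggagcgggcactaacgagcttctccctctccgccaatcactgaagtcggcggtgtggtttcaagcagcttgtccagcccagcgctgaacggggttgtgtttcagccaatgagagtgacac
Ifit3: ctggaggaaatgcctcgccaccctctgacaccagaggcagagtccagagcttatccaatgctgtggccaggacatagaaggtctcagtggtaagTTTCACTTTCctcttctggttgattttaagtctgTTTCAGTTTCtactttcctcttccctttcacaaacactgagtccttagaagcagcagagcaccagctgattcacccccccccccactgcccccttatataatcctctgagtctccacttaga
Isg15: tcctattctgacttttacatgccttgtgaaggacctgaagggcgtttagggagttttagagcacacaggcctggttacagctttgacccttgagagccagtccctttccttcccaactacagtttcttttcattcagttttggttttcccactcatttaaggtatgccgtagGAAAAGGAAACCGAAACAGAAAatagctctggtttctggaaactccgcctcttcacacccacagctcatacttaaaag
Gbp3: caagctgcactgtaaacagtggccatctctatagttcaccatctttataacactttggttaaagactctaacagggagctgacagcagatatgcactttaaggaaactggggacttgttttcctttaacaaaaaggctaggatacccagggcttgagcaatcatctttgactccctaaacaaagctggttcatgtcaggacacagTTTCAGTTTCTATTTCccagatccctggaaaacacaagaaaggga

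The core was found in 9 of 9 GTPases with a promoter in the RefSeq table and in 12 of 27 effectors (44.4%), against 936 of all 27025 genes in the table (3.46%) and 344 of 10922 tested genes (3.15%). In the class I list 3 of 17 held it, and in ribosomal protein genes, which were not higher, 6 of 39 (15.4%). Of the sensors 2 of 11 held it, and of the receptor, STAT and regulatory factor genes 3 of 18. A match describes the letters only and says nothing of binding.

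Class I antigen presentation, by which cells show internal peptides to T cells, was higher in 20 of 20 measured members, at a median of 3.73. H2-K1, a classical heavy chain (ENSMUSG00000061232, chr17:33996017-34000347, minus strand), stood at 1209 and 1291 CPM in the double mutant and 36.6 and 41.3 CPM in the TIN mutant, a difference of 4.99 ± 0.08 (adjusted p = 1.2e-18). The shared light chain B2m stood at 1344 and 1411 CPM in the double mutant and 288 and 325 CPM in the TIN mutant, a difference of 2.17. The peptide transporter Tap1 stood at 176 and 165 CPM in the double mutant and 9.19 and 8.80 CPM in the TIN mutant, a difference of 4.17. Both double-mutant libraries exceeded both TIN libraries in all 3 genes, while the lines did not overlap for 77.1% of all genes tested. Nlrc5, the activator of class I genes, differed by 5.34, and Psmb8, a catalytic subunit of the immunoproteasome, by 5.65. H2-Q6 had 2282 reads over the double-mutant libraries and 3 over the TIN libraries, a ratio of 811 with a counting interval of 277 to 3936, and H2-Q7 differed by 6.78. The H2-Q genes are near-identical copies and the split of reads between them is uncertain.

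**Figure D2:**
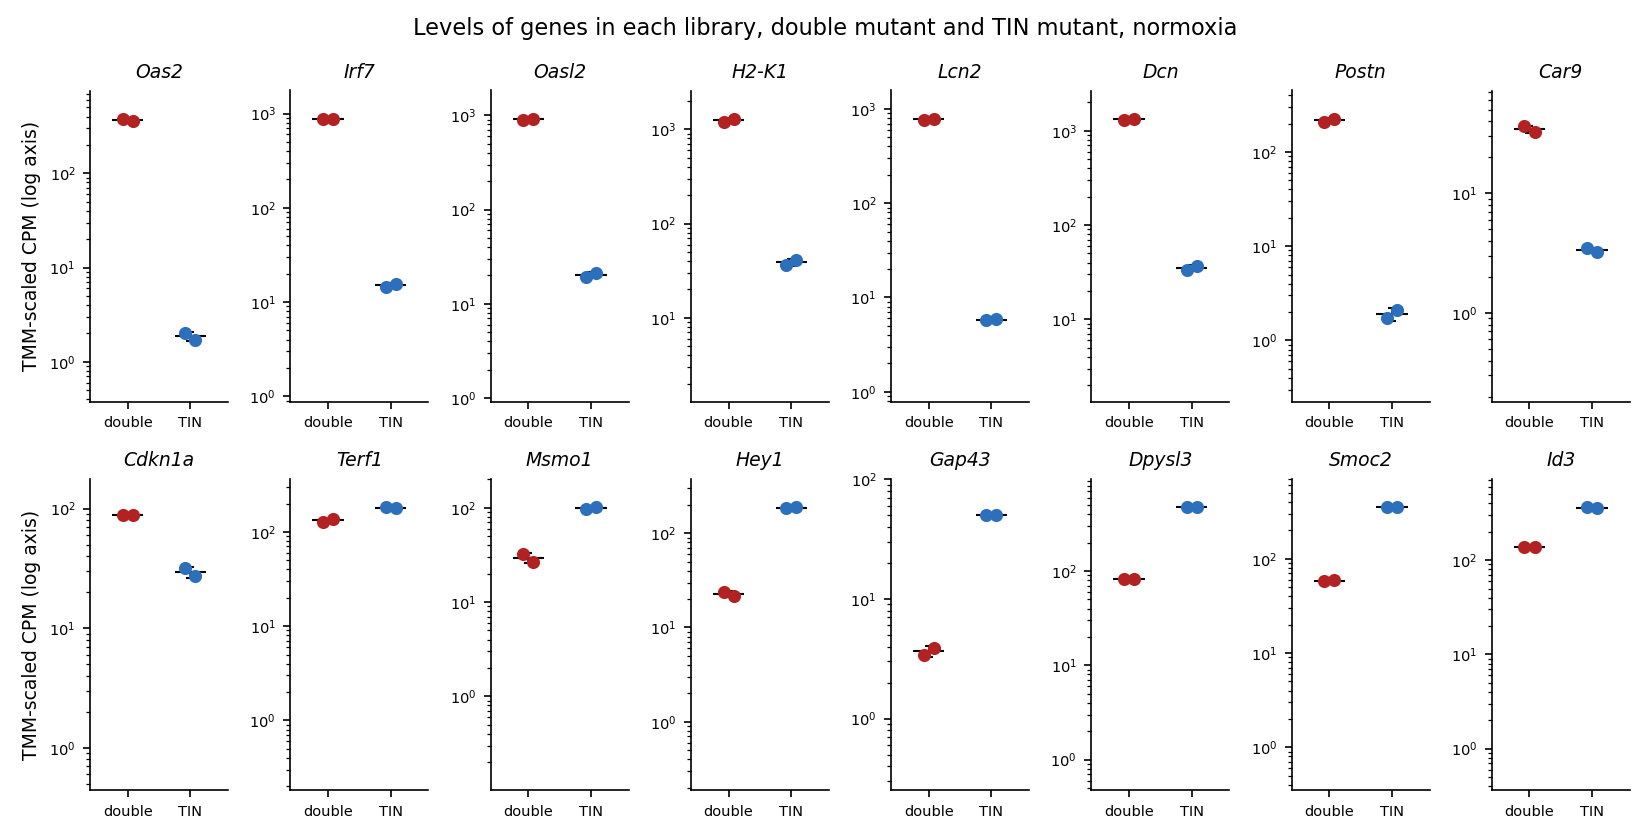
TMM-scaled CPM (log axes, with a range of its own in each panel) of genes in the 2 double-mutant and 2 TIN libraries in normoxia. Points are libraries, lines are means and bars are SD over 2 libraries. Oas2 stands at 378 and 355 CPM in the double mutant and 2.00 and 1.72 CPM in the TIN mutant, and Gap43 at 3.40 and 3.90 CPM in the double mutant and 50.1 and 50.3 CPM in the TIN mutant.

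Cytokines, chemokines and acute-phase genes were mostly higher too. Of 29 measured members 22 were higher and none lower, at a median of 1.52. Lcn2, an acute-phase protein that withholds iron from bacteria (ENSMUSG00000026822, chr2:32384633-32388252, minus strand), stood at 763 and 785 CPM in the double mutant and 5.77 and 5.90 CPM in the TIN mutant, a difference of 6.93 ± 0.10 (adjusted p = 2.1e-19). The complement component C3 stood at 2305 and 2555 CPM in the double mutant and 114 and 121 CPM in the TIN mutant, a difference of 4.37. Ccl5, a chemokine for T cells, stood at 346 and 356 CPM in the double mutant and 8.06 and 8.11 CPM in the TIN mutant, a difference of 5.35. In all 3 the double-mutant libraries were the high ones. The chemokine Cxcl10 differed by 3.88, Ccl2 by 1.96, the alarmin Il33 by 3.53, and the acute-phase genes Saa3 and Hp by 6.24 and 5.51. Complement C4b differed by 6.56, the lipid carrier Apod by 7.02 and nitric oxide synthase Nos2 by 6.24. Apod and Nos2 were close to the floor of 3 reads in the TIN libraries. The cytokine Il6 was low, at 3.99 and 3.55 CPM in the double mutant and 0.635 and 0.738 CPM in the TIN mutant, and differed by 1.85. The summed myeloid and leukocyte markers were 43.6 and 45.1 CPM in the double mutant and 34.3 and 32.2 CPM in the TIN mutant. Of 4 measured, 3 were higher and 0 lower, while Ptprc and Spi1 were at 0 in the 4 libraries.

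The oxygen-response programme was higher in the double mutant at atmospheric oxygen. Non-glycolytic targets of the hypoxia-inducible factor HIF were higher in 26 and lower in 1 of 28 members, at a median of 1.14. The acid-exporting carbonic anhydrase Car9 (ENSMUSG00000028463, chr4:43506966-43513729, plus strand) stood at 36.2 and 32.9 CPM in the double mutant and 3.47 and 3.24 CPM in the TIN mutant, a difference of 3.18 ± 0.09 (adjusted p = 3.5e-15), or 10.3 times the TIN level. The secreted hormone Stc1 differed by 2.88, the vasodilator Adm by 2.79, Ak4, a kinase of mitochondria, by 2.34 and Bnip3, which marks mitochondria for removal, by 1.35. The collagen-modifying enzymes Lox, Plod2, Loxl2 and P4ha1 differed by 2.07, 2.01, 1.76 and 1.65. Vegfa, the vessel growth factor, stood at 76.1 and 75.5 CPM in the double mutant and 42.8 and 42.5 CPM in the TIN mutant, a difference of 0.82. The core ACGTG, searched on both strands, was in the 250 bases before the start of 12 of 18 HIF targets with a RefSeq promoter (66.7%), against 2697 of 10922 tested genes (24.7%). Other lists varied, with 8 of 14 insulin-like growth factor genes (57.1%), 7 of 17 telomerase and telomere maintenance genes (41.2%) and 2 of 27 interferon effectors (7.41%).

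Glycolysis genes differed unevenly. Of 22 measured members 12 were higher and 1 lower, at a median of 0.23. The lactate exporter Slc16a3 stood at 29.1 and 28.1 CPM in the double mutant and 1.76 and 1.72 CPM in the TIN mutant, a difference of 3.70 ± 0.15. Pfkfb3, which makes the activator of phosphofructokinase, stood at 22.4 and 19.6 CPM in the double mutant and 2.93 and 3.49 CPM in the TIN mutant, a difference of 2.54 ± 0.13. Pdk1, which shuts pyruvate out of the tricarboxylic acid cycle, stood at 108 and 109 CPM in the double mutant and 36.3 and 41.8 CPM in the TIN mutant, a difference of 1.47. The lines did not overlap in these 3 genes. The glucose transporter Slc2a1 differed by 0.87 and hexokinase Hk2 by 0.78. Ldha differed by 0.27 and Pgk1 by 0.24, not called without double-mutant library B (0.25 and 0.21, adjusted p = 5.5e-02 and 7.3e-02) or without TIN library A (0.25 and 0.23, adjusted p = 6.1e-02 and 5.8e-02), and Gapdh, at −0.01, was not called.

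Matrix genes were higher in the main, with exceptions by family. Proteoglycans and matricellular proteins were higher in 24 and lower in 3 of 37, at a median of 0.72. Dcn, the collagen-binding proteoglycan decorin (ENSMUSG00000019929, chr10:97479609-97518143, plus strand), stood at 1309 and 1336 CPM in the double mutant and 33.3 and 36.6 CPM in the TIN mutant, a difference of 5.22 ± 0.07 (adjusted p = 2.1e-19). Periostin, Postn, stood at 210.0 and 224 CPM in the double mutant and 1.71 and 2.11 CPM in the TIN mutant, a difference of 6.50. Tenascin N, Tnn, differed by 6.41, lumican, Lum, by 4.07, and fibrillin-2, Fbn2, by 3.98. Fn1, at −0.21, was not called, and Tnc differed by −0.31. Collagen chains were higher in 14 and lower in 6 of 24, at a median of 0.58. Fibrillar Col3a1 stood at 1469 and 1479.7 CPM in the double mutant and 328 and 330.1 CPM in the TIN mutant, a difference of 2.16, while Col1a1 differed by 1.01 and Col1a2 by 0.33. Of the chains of basement membranes, Col18a1 differed by 3.26, Col4a1 by −0.82 and Col15a1 by −1.61. Matrix metalloproteinases and their inhibitors were higher in 16 and lower in 4 of 24, at a median of 0.95. The stromelysin Mmp3 stood at 830.1 and 845 CPM in the double mutant and 79.3 and 84.3 CPM in the TIN mutant, a difference of 3.35, the collagenase Mmp13 differed by 3.51, the gelatinase Mmp2 by 2.65 and the procollagen protease Adamts2 by 4.14. Their inhibitor Timp1, at −0.04, was not called.

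Growth signals outside the cell also differed. The insulin-like growth factor axis was higher in 11 and lower in 4 of 16, at a median of 0.73. The binding protein Igfbp3 stood at 139 and 139.5 CPM in the double mutant and 9.67 and 9.59 CPM in the TIN mutant, a difference of 3.79 ± 0.09. The ligand Igf2 stood at 15.5 and 16.0 CPM in the double mutant and 1.86 and 2.11 CPM in the TIN mutant, a difference of 2.71. Both genes were higher in each double-mutant library than in each TIN library. Igfbp2 differed by 3.56, Igfbp6 by −1.58 and the receptor substrate Irs1 by −1.58. Growth factors and receptors were higher in 15 and lower in 6 of 27, with the lymphatic growth factor Vegfc at 2.42, the platelet growth factor receptor Pdgfra at 1.75 and Fgf2 at −1.78. Wnt signalling genes were higher in 14 and lower in 5 of 28, among them the secreted Wnt inhibitor Sfrp1, at 2.37.

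Genes that mark where in the body a fibroblast came from did not move one way. The shares over all genes tested were 24.1% higher and 23.4% lower. Of 29 measured limb, heart and trunk factors 10 were higher and 7 lower, with Lmx1b, which marks the dorsal limb, at 3.14, Foxf1, a factor of gut and lung mesenchyme, at 3.06, Osr2 at 2.88 and the cartilage factor Sox9 at −1.25. Hox genes, which mark position along the body axis, were higher in 0 and lower in 7 of 16 measured members, at a median of −0.31, with Hoxa9 at −0.94 and Hoxd11 at −0.66. With a filter of 5 CPM the lower count was 4. The other 23 listed Hox genes were under the filter.

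Among the genes with the most negative differences, Gap43, a growth-cone protein (ENSMUSG00000047261, chr16:42248442-42340651, minus strand), stood at 3.40 and 3.90 CPM in the double mutant and 50.1 and 50.3 CPM in the TIN mutant, a difference of −3.61 ± 0.16. Dpysl3, which remodels the cytoskeleton of growing axons, stood at 83.2 and 81.7 CPM in the double mutant and 474 and 473 CPM in the TIN mutant, a difference of −2.51. Syt7, a calcium sensor of vesicle fusion, stood at 17.2 and 15.7 CPM in the double mutant and 125 and 118 CPM in the TIN mutant, a difference of −2.84. The double-mutant libraries were the low ones in these 3 genes. The channel subunit Unc80 differed by −2.72, the teneurin Tenm3 by −2.67 and the secretory-granule protein Ptprn by −2.64. The most negative difference was that of Dynap, −4.95 ± 0.23 (adjusted p = 5.0e-12), at 0.493 and 0.200 CPM in the double mutant and 25.5 and 24.9 CPM in the TIN mutant, the double-mutant level being close to the floor. Pcolce2, which enhances procollagen processing, differed by −3.79, the matricellular protein Smoc2 by −2.57 and the phosphodiesterase Pde3b by −2.78. Neural and glial markers summed to 268 and 279.7 CPM in the double mutant and 356 and 364 CPM in the TIN mutant, with 1 higher and 4 lower of 9 measured and the glial factor Olig2 at 0. Their part in these differences was not tested. Axon guidance genes as a list were higher in 13 and lower in 15 of 40, against 24.1% and 23.4% of all genes tested.

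Some targets of Notch and BMP signals were lower. Hey1, a repressor that Notch induces (ENSMUSG00000040289, chr3:8663359-8667256, minus strand), stood at 23.8 and 21.7 CPM in the double mutant and 183 and 188 CPM in the TIN mutant, a difference of −3.0 ± 0.15 (adjusted p = 6.3e-12). Hes1, another such repressor, differed by −1.63 and the ligand Jag1 by −1.92, while Rbpj, the DNA-binding partner of Notch, differed by 1.60. The Notch list as a whole was higher in 7 and lower in 5 of 14, at a median of 0.16, a higher count of 4 without double-mutant library A, double-mutant library B or TIN library A. Id3, an inhibitor of differentiation that BMP signals induce, stood at 138 and 138 CPM in the double mutant and 363 and 359 CPM in the TIN mutant, a difference of −1.38, Id1 differed by −1.67 and Id2 by −2.16. The TGF-beta and BMP list was higher in 10 and lower in 9 of 30, at a median of −0.076. Over all genes tested 24.1% were higher and 23.4% lower. Ccn1 and Ccn2, matricellular genes induced by YAP, differed by −1.63 and −2.37. Contractile genes were higher in 5 and lower in 8 of 20, with smooth muscle actin Acta2 at −0.73, filamin Flna at −0.90 and the myosin light chain Myl9 at 3.28.

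Cholesterol synthesis was lower nearly throughout. Of 24 measured members none was higher and 23 were lower, at a median of −0.90. The methylsterol oxidase Msmo1 (ENSMUSG00000031604, chr8:64718139-64733792) stood at 32.0 and 26.7 CPM in the double mutant and 97.3 and 101 CPM in the TIN mutant, a difference of −1.74 ± 0.11 (adjusted p = 3.2e-10). Squalene epoxidase, Sqle, stood at 40.3 and 45.8 CPM in the double mutant and 119.9 and 124 CPM in the TIN mutant, a difference of −1.50. Both genes were lower in each double-mutant library than in each TIN library. Idi1 differed by −1.61, Cyp51 by −1.54, Hmgcs1 by −1.18 and Srebf2, the factor that drives the pathway, by −0.69. Ebp was not called. The list median was 36.31 and 38.84 CPM in the double mutant and 84.55 and 90.89 CPM in the TIN mutant, with GLAD libraries at 69.38 and 67.79 CPM and wild-type libraries at 82.97 and 74.87 CPM.

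Genes of respiration, protein synthesis and protein breakdown were lower by small amounts. Of 55 nuclear oxidative phosphorylation genes 1 was higher and 38 lower, at a median of −0.31, with the complex I subunit Ndufa10 at −0.78 and Ndufa4 at −0.88. The lower count was 22 without double-mutant library A and 21 without TIN library B. The tricarboxylic acid cycle had 14 lower of 20 and none higher, at −0.39, with fumarase Fh1 at −0.77. Of 12 mitochondrially encoded genes 8 were lower, at a median of −0.72, but TIN library A was far above TIN library B in them. The complex I gene mt-Nd1 stood at 455 and 372 CPM in the double mutant and 1178 and 692 CPM in the TIN mutant, and the lower count was 2 without TIN library A, 5 without double-mutant library A and 4 without double-mutant library B. Cytosolic ribosomal proteins had 32 lower of 50, at −0.26, a count of 8 without TIN library B and 14 without double-mutant library A. Constitutive proteasome subunits had 27 lower of 31 and none higher, at −0.40, with Psmd1 at −0.80. NRF2 targets of the antioxidant response had 4 higher and 15 lower of 25, at −0.39, with the quinone reductase Nqo1 at −1.16, the glutathione-making Gclc at −1.12 and the transferases Gstm2 and Gsta4 at 1.20 and 1.17.

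Stress-response genes were more often higher than lower. The integrated stress response, which ATF4 drives, had 16 higher and 3 lower of 23, at a median of 0.37. Its factor Atf3 stood at 27.2 and 26.0 CPM in the double mutant and 4.06 and 4.38 CPM in the TIN mutant, a difference of 2.52, and Ddit3, Trib3 and Chac1 differed by 1.39, 1.29 and 1.22, against −0.75 for the serine enzyme Psat1. Endoplasmic reticulum chaperones had 16 higher and none lower of 22, at 0.32, with the chaperone Hspa5 at 0.46 and its partner Dnajb9 at 0.85. Targets of p53 had 15 higher and 4 lower of 28, at 0.28. Cdkn1a, the p21 inhibitor of cell-cycle kinases, stood at 88.5 and 87.9 CPM in the double mutant and 31.7 and 27.1 CPM in the TIN mutant, a difference of 1.57 (adjusted p = 2.1e-11). The death gene Pmaip1 differed by 1.70, the death receptor Fas by 1.26 and Mdm2, which degrades p53, by 0.53, while the kinase Plk2 differed by −0.99. Trp53 (−0.17), Cdkn2a (−0.08) and Myc (0.02) were not called.

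Genes of the cell cycle differed by small amounts and were more often lower than higher. Over all genes tested 24.1% were higher and 23.4% lower. DNA replication genes had 1 higher and 19 lower of 43, at a median of −0.18, with 11 or 12 lower when double-mutant library A, double-mutant library B or TIN library A was left out. The ribonucleotide reductase subunit Rrm2 differed by −0.60, and Pcna, at −0.06, was not called. Mitosis genes had none higher and 13 lower of 34, at −0.18, with the kinase Plk1 at −0.59 and Cdc20, the activator of the anaphase ligase, at −0.62. With the trend on transcript length and GC content removed, the lower count was 25 for DNA replication and 20 for mitosis. Homologous recombination and Fanconi genes had 5 higher and 10 lower of 30, a lower count of 6 without double-mutant library B or TIN library B, and DNA damage signalling genes had 2 higher and 6 lower of 23, a lower count of 2 without double-mutant library A and 3 without TIN library A.

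Among the shelterin genes the differences were small, while some telomerase genes differed more. Of the 7 shelterin genes 1 was lower and none higher. Terf1, which encodes TRF1 and was replaced here (ENSMUSG00000025925, chr1:15805646-15844052, plus strand), stood at 129 and 137 CPM in the double mutant and 182 and 177 CPM in the TIN mutant, a difference of −0.44 ± 0.09 (adjusted p = 4.0e-04). The TIN libraries were both above the double-mutant libraries. A count per gene does not tell mouse Terf1 from the naked mole rat sequence, so this is no check of the replacement. Terf2, which encodes TRF1's relative TRF2, at 0.13, and Terf2ip, which encodes the TRF2 partner RAP1, at 0.07, were not called (adjusted p = 2.2e-01 and 5.8e-01). Tinf2, which encodes TIN2, the bridge of the complex, was at −0.14, Acd, which recruits telomerase, at −0.17, and the single-strand binders Pot1a and Pot1b at −0.21 and −0.33, none of them called (adjusted p = 2.4e-01, 1.3e-01, 9.1e-02 and 1.0e-01). With the length and GC trend removed 4 shelterin genes were lower, and with the 4 libraries fitted alone 3. Of 24 measured telomerase and telomere maintenance genes 4 were higher and 10 lower, at a median of −0.23, with 17 lower when the length and GC trend was removed. Dyskerin, Dkc1, which binds telomerase RNA, stood at 51.4 and 57.4 CPM in the double mutant and 100.1 and 94.1 CPM in the TIN mutant, a difference of −0.83, and its partners Nhp2, Nop10, Naf1 and Gar1 differed by −1.18, −0.61, −0.55 and −0.42. Wrap53, which brings telomerase to Cajal bodies, was higher, by 0.44. The helicase Pif1 differed by −0.56, while Ctc1, of the complex that fills in the lagging strand, differed by 0.39 and the chaperone Daxx by 0.52.

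**Figure D3:**
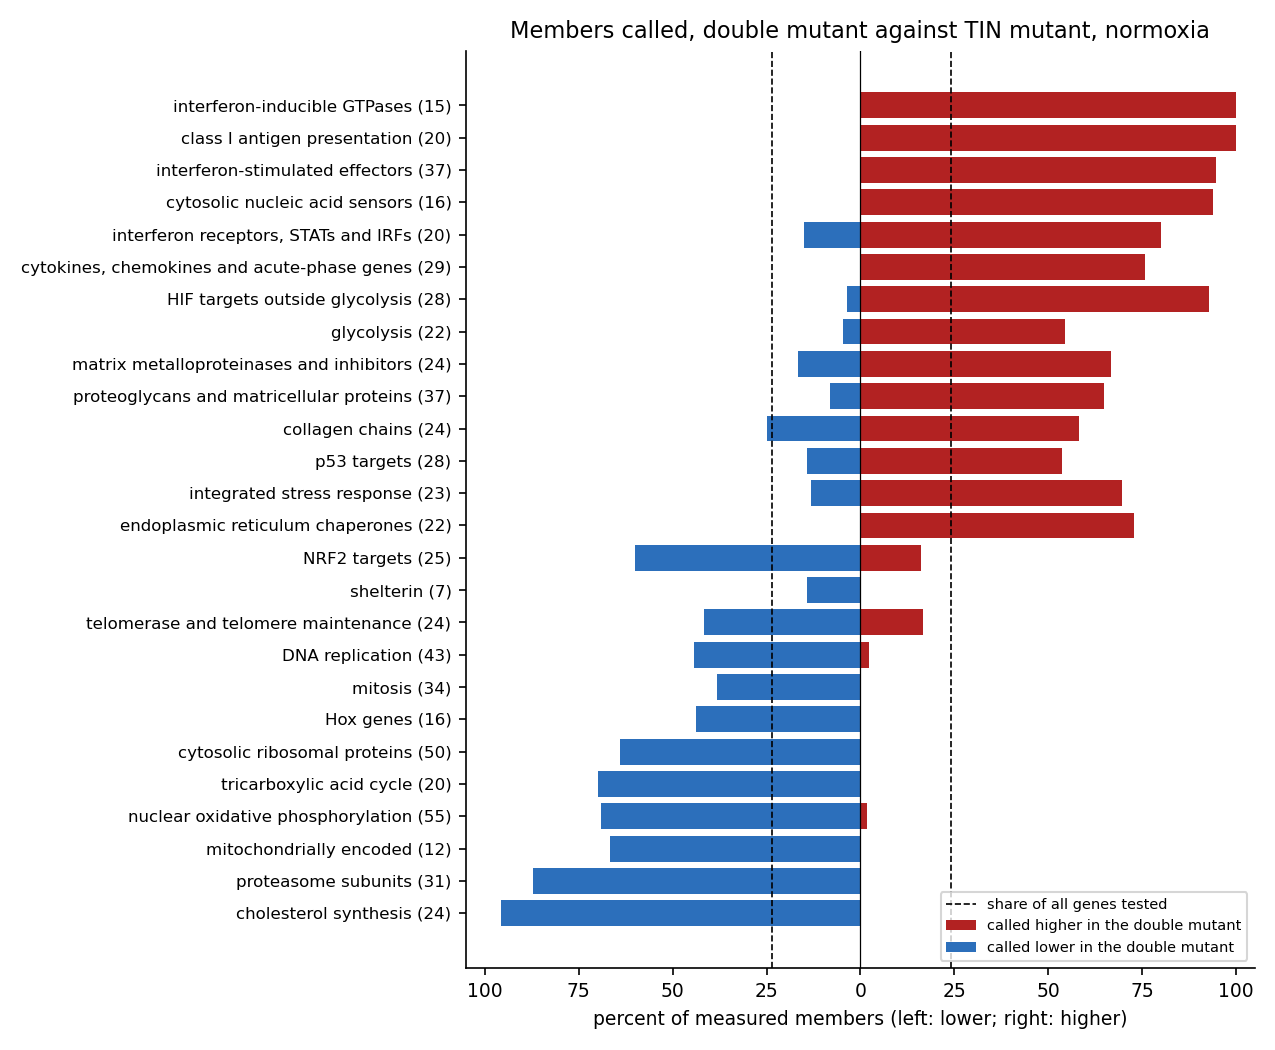
Share of measured members called higher (right) and lower (left) in the double mutant against the TIN mutant in normoxia, in percent, for 26 lists. Dashed lines mark the shares of all 16157 genes, 24.1% higher and 23.4% lower. GTPases and class I genes reach 100% higher, and cholesterol synthesis and proteasome genes hold no higher member.

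Set beside the GLAD and wild-type lines in normoxia, the interferon difference lay with a low TIN line and the cholesterol difference with a low double-mutant line. By group means the TIN mutant was the lowest of the 4 lines in 35 of 37 effectors, 15 of 15 GTPases and 20 of 20 class I genes, against 27.4% of all genes tested. Effector medians were 165.6 and 168.1 CPM in the double mutant, 10.41 and 9.489 CPM in the TIN mutant, 137.2 and 141.8 CPM in the GLAD mutant and 181.7 and 190.2 CPM in the wild type. For Oas2 the GLAD libraries held 369 and 377 CPM and the wild-type libraries 319 and 344 CPM, close to the double mutant. The double mutant was the lowest of the 4 in 23 of 24 cholesterol genes, 12 of 12 mitochondrially encoded genes and 37 of 55 oxidative phosphorylation genes, against 20.9% of all genes. It was the highest in 18 of 29 cytokine and acute-phase genes and 16 of 28 HIF targets, against 20.3% of all genes. In the same 2 lists the TIN mutant was the lowest in 17 of 29 and 17 of 28, against 27.4% of all genes. Lcn2 was at 53.3 and 62.9 CPM in the GLAD mutant and 27.9 and 34.8 CPM in the wild type, well under the double mutant. These orders describe 2 libraries a line, and the wild-type values rest on sample titles, since the library names of that group hold the word mouse.

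**Figure D4:**
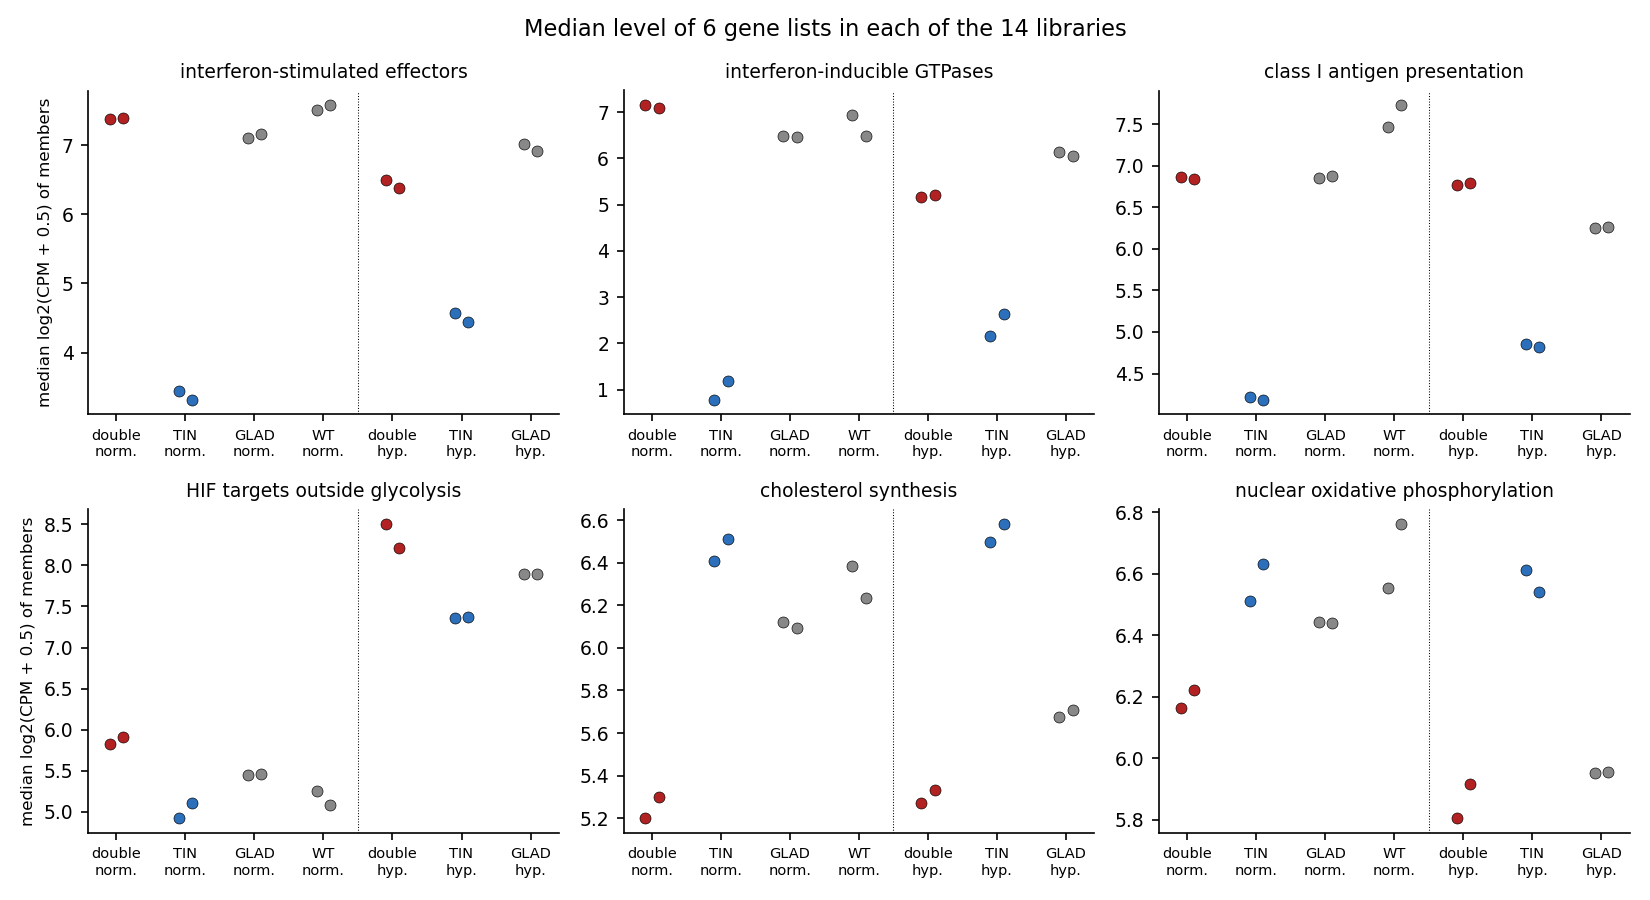
Median log2(CPM + 0.5) over the members of 6 lists in each of the 14 libraries. For interferon effectors, GTPases and class I genes the TIN libraries in normoxia are the lowest, and for cholesterol synthesis the double-mutant libraries in normoxia lie under the TIN, GLAD and wild-type ones.

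The same step without the TIN substitution, GLAD minus wild type, answers whether the GLAD substitutions went with the same differences on another background. It used none of the libraries of the double mutant against TIN comparison. GLAD differed from the wild type in 8927 genes (55.3%). Of the 1386 genes at least 2-fold higher in the double mutant 541 (39%) were also called higher in GLAD and 406 (29.3%) lower, and of the 452 at least 2-fold lower ones 119 (26.3%) were called lower and 177 (39.2%) higher, against 27.4% higher and 27.9% lower over all genes. Across genes the comparisons correlated at a Pearson r of 0.035, a description only. The difference of the differences was called in 8041 genes (49.8%). Interferon effectors were higher in 3 and lower in 17 of 37 in GLAD against wild type, at a median of −0.12, and class I genes higher in 1 and lower in 17 of 20, at −0.97. The matrix gene Dcn was higher with the GLAD substitutions on both backgrounds, by 4.85 between GLAD, at 392 and 400.2 CPM, and wild type, at 13.1 and 13.3 CPM. Cholesterol synthesis was lower in 17 and higher in 1 of 24, at −0.54.

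Hypoxia asks whether the line difference depended on oxygen. At 1% oxygen the double mutant differed from the TIN mutant in 10333 genes (64%), and of the 1386 genes at least 2-fold higher in normoxia 1085 (78.3%) were called higher in hypoxia, against 33.2% of all genes. Of the 452 at least 2-fold lower, 367 (81.2%) were called lower, against 30.7% of all genes. The difference changed with oxygen in 6939 genes (42.9%). Interferon effectors were still higher in 34 and lower in 2 of 37, at a median of 1.74 against 3.90 in normoxia, and GTPases in 15 of 15, at 2.21 against 4.40. For Oas2 the hypoxia libraries held 127 and 135 CPM in the double mutant and 12.2 and 12.3 CPM in the TIN mutant, a difference of 3.37, and the change with oxygen was −3.91. Oas2 was picked by its normoxia difference, and that pick favours a smaller difference in hypoxia. Lcn2 stood at 1002 and 1089.6 CPM in the double mutant and 81.2 and 81.2 CPM in the TIN mutant in hypoxia. The effector median was 89.47 and 83.15 CPM in the double mutant and 23.31 and 21.16 CPM in the TIN mutant, so that double-mutant libraries were lower and TIN libraries higher than in normoxia. HIF targets had medians of 363 and 296.8 CPM in the double mutant and 164.4 and 165.6 CPM in the TIN mutant in hypoxia, and of 56.02 and 59.71 CPM in the double mutant and 29.95 and 34.02 CPM in the TIN mutant in normoxia. In hypoxia 25 were higher and 1 lower of 28 in the double mutant. Cholesterol synthesis was lower in 22 and higher in 0 of 24, at −1.05. Oxidative phosphorylation was lower in 55 of 55, at −0.73, and mitosis genes were lower in 23 and higher in 2 of 34, at −0.40. Across genes the hypoxia difference correlated with transcript length at a Spearman r of 0.28, against 0.085 for the normoxia difference. The part of transcript length in these hypoxia counts was not tested.

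**Figure D5:**
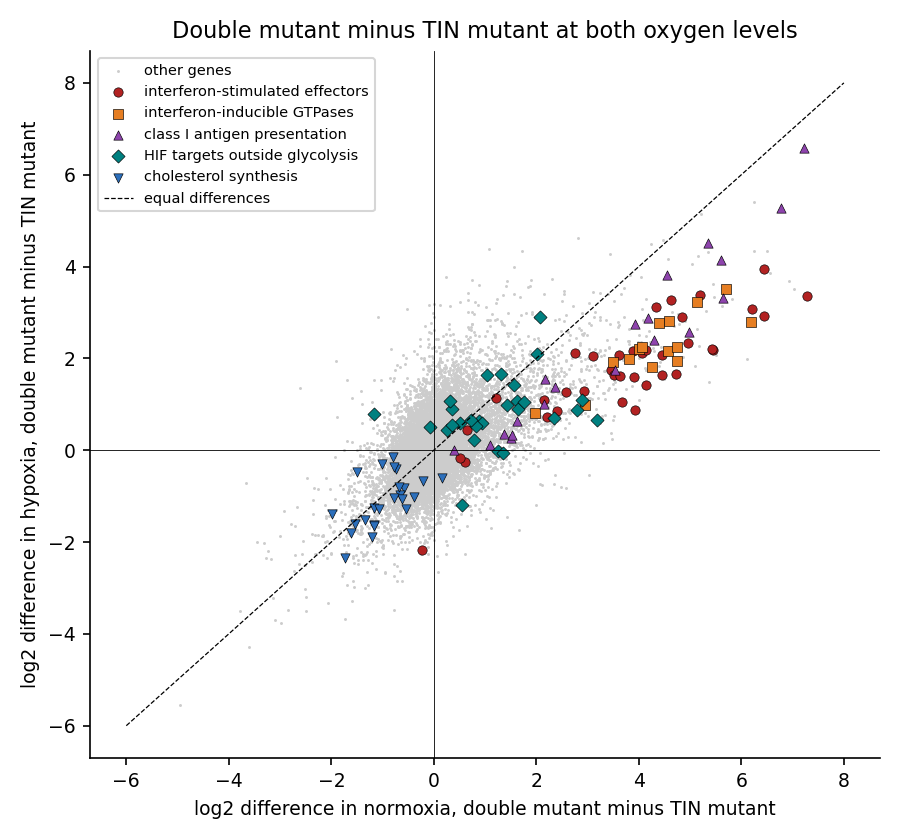
Log2 difference of the double mutant minus the TIN mutant in hypoxia (vertical axis) against the same difference in normoxia (horizontal axis), 1 point a gene. Across genes the Pearson r was 0.62, and interferon effectors had medians of 1.74 in hypoxia and 3.90 in normoxia.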

How the data were processed

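Bulk RNA was read in 14 libraries, 2 for each of 7 groups, of which the 4 normoxia libraries of the double and TIN mutants were compared. The authors deposited CPM for 52636 Ensembl genes in 1 table, and all its columns of per-sample values were used. Per the submitters' processing notes, STAR, HTSeq, GRCm38.p4 and mm10 were used; versions, strand setting and annotation release are not given in the sources used here, so reads of overlapping or antisense genes cannot be told apart. Low CPM values were whole multiples of a step, to within 0.010 of it, and reads were recovered for depth and floors with 1 further factor per library, of 1.33 to 1.68. This fitted 85.3% of values in double-mutant hypoxia library B and at least 99.8% in the others. Intervals cover counting error only, and PCR copies are not independent molecules.

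Trimmed-mean (TMM) factors (trimming 30% of the log ratios and 5% of the levels) scaled the CPM, and log2 was taken after adding 0.5 CPM, which understates the fold of low genes. Levels in the text are the scaled CPM. Genes with at least 1 CPM in 2 libraries were fitted with limma 3.58.1 in R 4.3.3 over all 14 libraries, 7 group means and 7 residual degrees of freedom, with variances moderated along the trend on level. A gene was called at a Benjamini-Hochberg adjusted p under 0.05 over 16157 genes, and ± is the model's standard error. The scripts were tested on simulated data.

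Genes named are the 12 highest and 12 lowest called genes averaging 5 CPM or more, the 6 highest and 6 lowest with at least 200 CPM, up to 4 called members of each list, the shelterin genes and some fixed genes. Other members were named for their role after their values were seen, as were the promoters shown. Only promoters that held a match were shown. Some members are not reported here. The members and lists were chosen with earlier results of these data known. Promoters are from RefSeq (GRCm38.p6) and gene coordinates from an annotation of GRCm38. Alternatives were other pseudocounts, filters, scalings, variance models, fits of fewer libraries, the library letter as a block, limma-voom on recovered reads, and removal of each library's trend on transcript length and GC content.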

Additional observations from a re-analysis of the deposited data

Results flagged for a closer look

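The difference between the double mutant and the TIN mutant changed with oxygen in 6939 genes, by a test of the hypoxia difference minus the normoxia difference in limma. Negative values mean a smaller excess of the double mutant in hypoxia. Among the genes highest in the double mutant in normoxia, Oas2 changed by −3.91, Ifi27l2a by −3.52, Tnn by −3.51, Apod by −3.50, Lcn2 by −3.26, C4b by −2.70, Trim30a by −2.49, Postn by −2.16, Saa3 by −1.90, H2-Q7 by −1.50, Nos2 by −0.83 and H2-Q6 by −0.64. Among the lowest, Tenm3 changed by 1.43, Pde3b by 1.16, Hey1 by 1.14 and Unc80 by 1.07, so that the deficit of the double mutant was smaller in hypoxia. Gap43 changed by −0.68 and Syt7 by −0.64, a larger deficit in hypoxia. The genes were picked by their normoxia difference, which this test subtracts, so the pick itself favours smaller differences in hypoxia.

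The difference that went with the GLAD substitutions depended on the background in 8041 genes, by a test of the double mutant minus TIN difference minus the GLAD minus wild-type difference. H2-Q7 gave 10.60, H2-Q6 10.56, Nos2 7.18 and Saa3 7.06, genes higher with the substitutions on the TIN background and lower on the wild-type one. Gap43 gave −6.57, Dynap −5.95, Hey1 −5.86, Pcolce2 −5.30, Syt7 −4.97 and Pde3b −4.31, the opposite pattern. The double mutant minus TIN differences of these genes, or for H2-Q6 the ratio of reads, are in the text above. Their GLAD and wild-type levels are not printed here, and the wild-type values rest on sample titles. These genes too were picked by the double mutant minus TIN difference, so the pick favours values of that sign.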

How the results depend on the processing

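Of the 223 called genes among the 232 named, 204 kept direction and call under every alternative run, and 19 lost the call in at least 1 alternative, among them Ldha, Pgk1, Mki67 and mt-Nd3. The count of calls was 7673 as reported, 8575 with the 4 compared libraries fitted alone, 8587 with the length and GC trend removed, 7659 with limma-voom and 6627 with a filter of 5 CPM. Genes at least 2-fold higher numbered 897 with a pseudocount of 2 CPM, and genes at least 2-fold lower 252 with that pseudocount and 293 with the filter of 5 CPM in 2 libraries; a larger pseudocount shrinks the fold of low genes by construction, and the filter tests fewer genes. Myc, at 0.02 and not called, changed sign, to −0.0075 with no filter, −0.0013 with no TMM scaling, −0.044 with the length and GC trend removed and −0.045 to 0.080 when 1 library was left out, the negative value without double-mutant normoxia library B; the cause was not tested. Leaving out 1 compared library at a time gave 5982 to 6056 calls, 1393 to 1408 genes at least 2-fold higher, 444 to 515 at least 2-fold lower, 5508 to 6828 calls for the change with oxygen and 6848 to 8962 for the change with background; a line with 1 library left was assumed to vary like the others. Leaving out a library of another group gave 7344 to 8822 calls, 1384 to 1409 genes at least 2-fold higher and 436 to 452 at least 2-fold lower, and 8211 or 8258 calls for the change with oxygen without wild-type library A or B; GLAD hypoxia libraries were not left out. The length and GC removal and limma-voom were chosen after seeing the data, and the planned count test was not run because the values are CPM.

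With the library letter as a replicate block, calls numbered 7801, 1386 genes were at least 2-fold higher and 452 lower, and 7063 and 8116 genes changed with oxygen and with background. Deviations of same-lettered libraries correlated at −0.097 to 0.16 between groups (0.024 between the double and TIN mutants in normoxia), so no strong pairing by letter was seen. With 2 libraries a group a weak pairing could be missed.

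Depth limits genes near 3 reads, such as Ifnb1, H2-Q6, Apod and Dynap, and 2 libraries a group limit every error estimate.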

Other observations

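Of 5 tested protein-coding genes of the Y chromosome 4 were higher and 1 lower in the double mutant. Ddx3y stood at 52.2 and 47.6 CPM in the double mutant and 14.1 and 18.6 CPM in the TIN mutant, a log2 difference of 1.59. Uty stood at 21.6 and 19.9 CPM in the double mutant and 8.65 and 8.95 CPM in the TIN mutant, a difference of 1.19, Kdm5d differed by 0.83 and Eif2s3y by 0.74. Xist had 2 and 3 reads in the double mutant and 0 and 2 reads in the TIN mutant.

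Imprinted growth genes were higher in 9 and lower in 2 of 13 measured members, at a median of 0.93. Dlk1 differed by 2.81, the zinc-finger factor Plagl1 by 1.25, the sarcoglycan Sgce by 1.02 and Peg10, a retrotransposon-derived gene needed in the placenta, by −1.63. Replication-dependent histones were higher in 6 of 8 measured members, at a median of 0.88, a count of 2 or 3 with no filter on low values or without double-mutant library B or TIN library A. The linker histone Hist1h1c differed by 1.14. The histone list median was 2.34 and 1.83 CPM in the double mutant and 0.88 and 0.98 CPM in the TIN mutant, near the filter of 1 CPM. The other 16 listed histones were under the filter, and members could pass it through the groups where they were high. Of 9 DNA methylation and TET genes 4 were higher and 2 lower, with the demethylating enzyme Tet1 at 1.19.

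By chromosome, only protein-coding genes were counted. Those of chromosome 19 were called higher in 17.8% and lower in 43.4% of 461 genes, at a median of −0.22. On chromosome 4 the shares were 19.2% and 38.3%, at −0.17. Chromosome 12 had 36.6% higher and 12.1% lower, at 0.16, and chromosome 15 had 35.1% and 14.0%, at 0.098. The shares over all genes tested, protein coding or not, were 24.1% and 23.4%, which is an unlike set of genes. The chromosome shares were not tested, and DNA copy number was not measured.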
